A study of Mus musculus with 4 samples.

Results

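The genes described here are 10 regulators of muscle protein breakdown: the F-box proteins Fbxo32, Fbxo30 and Fbxo40, the other ubiquitin ligases Trim63, Nedd4, Traf6 and Mul1, and the transcription factors Foxo1, Foxo3 and Foxo4. They were chosen by name, and every probe whose RefSeq accession belongs to one of them was taken, which gave 14 probes for 10 genes out of 39429 gene probes and 19751 named genes on the array. The cells were C2C12 myoblasts, a mouse line derived from satellite cells of thigh muscle, of no labelled genetic change. The palmitate cultures were exposed to the saturated fatty acid palmitate at 0.1 mmol/l for 48 h in DMEM with 5% foetal bovine serum. The control cultures received the same ethanol and fatty-acid-free albumin that carried the palmitate, according to the treatment notes, while another label of the control names a medium with 10% HS. Each of 4 two-colour Agilent arrays held RNA of 1 control culture labelled with Cy3 and 1 palmitate culture labelled with Cy5, and the labels call the 4 pairs biological replicates. Palmitate RNA carried Cy5 on all arrays, so palmitate and dye cannot be told apart.

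Muscle loses mass when proteins are tagged with ubiquitin and destroyed by the proteasome faster than they are made. Fbxo32 (atrogin-1, also MAFbx) is the substrate-binding F-box subunit of an SCF ligase, and Trim63 (MuRF1) is a RING-finger ligase of sarcomere proteins. Both are known as genes that FoxO factors switch on in wasting muscle. When insulin or IGF-1 signalling is active, the kinase Akt phosphorylates the FoxO factors and 14-3-3 proteins hold them outside the nucleus. Fbxo30 (MUSA1) is an F-box protein of muscle wasting restrained by BMP signalling, Fbxo40 is a muscle F-box protein that targets the insulin receptor substrate Irs1, and Traf6 and Mul1 are ligases of signalling complexes and of the outer mitochondrial membrane.

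The promoters of 4 members are shown because they carry, or lack, the letters that FoxO factors and MyoD are known to bind upstream of genes of this set. The sequences are those of RefSeq for mouse build GRCm38.p6 and cover the 250 bases before the annotated start of the gene, in the direction of the gene. Of the 10 members, 8 had an entry, with 10 starts in all, and Fbxo32 and Foxo4 had none. Capitals mark TGTTTAC (the FoxO core), TGTTTTG (the core of the insulin response element) and CAGCTG (an E-box of MyoD), searched on both strands. No motif overlaps another in the sequences shown.
Trim63, chr4:134314870-134315119, plus strand: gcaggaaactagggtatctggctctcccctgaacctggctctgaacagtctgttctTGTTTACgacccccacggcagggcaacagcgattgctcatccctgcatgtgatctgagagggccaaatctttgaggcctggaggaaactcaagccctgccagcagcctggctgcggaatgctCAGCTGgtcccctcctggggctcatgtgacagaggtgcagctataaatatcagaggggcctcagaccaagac
Fbxo40, first start, chr16:36990468-36990717, minus strand: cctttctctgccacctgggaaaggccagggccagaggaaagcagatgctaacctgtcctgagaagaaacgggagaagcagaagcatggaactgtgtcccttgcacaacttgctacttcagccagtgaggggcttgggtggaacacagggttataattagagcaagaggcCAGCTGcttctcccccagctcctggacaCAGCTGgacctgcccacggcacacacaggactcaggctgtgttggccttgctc
Foxo1, chr3:52268087-52268336, plus strand: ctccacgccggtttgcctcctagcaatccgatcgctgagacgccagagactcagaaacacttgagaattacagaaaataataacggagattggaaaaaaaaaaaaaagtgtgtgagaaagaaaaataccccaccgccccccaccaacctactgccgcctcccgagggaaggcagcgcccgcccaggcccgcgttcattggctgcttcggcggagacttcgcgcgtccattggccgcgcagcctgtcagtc
Fbxo30, chr10:11281337-11281586, plus strand: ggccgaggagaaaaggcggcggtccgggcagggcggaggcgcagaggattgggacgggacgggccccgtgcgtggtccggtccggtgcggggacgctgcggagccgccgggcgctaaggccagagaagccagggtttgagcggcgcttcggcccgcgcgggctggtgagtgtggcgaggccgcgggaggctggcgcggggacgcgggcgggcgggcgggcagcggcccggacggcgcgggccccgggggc
The FoxO core was present in the Trim63 promoter, 194 bases before the start, and in none of the other member promoters searched. Over all 32851 promoters of this length, 3.17% held it. The insulin response core was present in the Traf6 promoter, 177 bases before the start, against 5.56% of all promoters. The E-box was found in Trim63 (72 bases before the start), in both starts of Fbxo40 (81 and 53 bases before the first) and before the second start of Nedd4 (139 bases), against 13.0% of all promoters. The windows of Foxo1, Fbxo30, Foxo3 and Mul1 held none of the motifs, and their base composition differed, with 80.4% G and C in Fbxo30 and 56.0% in Foxo1. A match of letters is a description of the window and not a binding site.

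Among gene probes, 57.5 to 64.0% were well above background with control RNA and 61.8 to 70.7% with palmitate RNA. A probe was tested when at least 1 of its channels passed that limit on every array, and 24055 probes passed, of which the named ones stand for 13666 genes. Replicate 1 stood apart, with a correlation across tested probes of -0.076 between its log2 ratios and the mean of the other arrays, while replicates 2, 3 and 4 correlated at 0.68 to 0.77 among themselves. Probes are not independent, so these correlations are descriptions. Results without replicate 1 leave out an array that was set apart by these same ratios. That choice favours a small spread and small p-values among the other arrays. Passing without replicate 1 is therefore given as a description of the data. The probe of 28S ribosomal RNA (Rn28s1), looked at after its values were seen, had a log2 ratio of 1.42 on replicate 1 and of -3.35 to -2.14 on the others, and its part in the results was not tested. Of 6 myoblast markers, 5 were above background in all cultures, with Pax7 so on 2 control and 4 palmitate arrays, and so were 5 of 6 markers of differentiated muscle. None of 4 adipocyte markers was above background on any array, and neither were Epcam, Cdh5 and Tek, while Itgam, Pecam1, Kdr and Tubb3 were above it in all cultures. None of the tested markers passed an adjusted p of 0.05 in limma.

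Of the FoxO factors, Foxo1 was clearly measured, Foxo3 was near background and Foxo4 was not detected. Foxo1, a FoxO factor known to be induced in fasted muscle, has 2 probes. On the brighter probe the normalized log2 level was 10.73, 10.89, 10.75 and 10.64 in control cultures 1 to 4 and 10.85, 10.31, 10.11 and 9.98 in the palmitate cultures of the same arrays. Palmitate cultures 2, 3 and 4 lay below every control culture, and palmitate culture 1 lay among the controls, so the groups overlapped through that culture alone. The log2 ratios of palmitate over control were 0.12, -0.59, -0.64 and -0.67, with a mean of -0.44 ± 0.38 (SD, n = 4 arrays), which is a level 1.36-fold higher in control. The 95% interval of the mean was -0.80 to -0.084, and the adjusted p over all tested probes was 0.173 in limma, so Foxo1 did not pass the test. Without replicate 1 the mean was -0.63 ± 0.041 (SD, n = 3 arrays) and the adjusted p was 0.00721 in limma, a level 1.55-fold higher in control.

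The second Foxo1 probe gave log2 levels of 10.40, 10.61, 10.55 and 10.78 in control and 10.62, 9.95, 10.47 and 10.15 with palmitate. Its palmitate cultures 2 and 4 were below all controls, and cultures 1 and 3 were within the control range. Its log2 ratios were 0.22, -0.66, -0.084 and -0.63, with a mean of -0.29 ± 0.43 (SD, n = 4) and an adjusted p of 0.345 in limma. Without replicate 1 the mean was -0.46 ± 0.33 (SD, n = 3) and the adjusted p was 0.0555 in limma, just beyond the threshold. Without replicate 2 or 4 the mean was -0.17 or -0.18. The ratios of both probes differed by 0.037 to 0.56 within an array, most on replicate 3. Averaged over its probes, Foxo1 had a log2 ratio of -0.37 with an adjusted p of 0.196 in limma.

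Foxo3, the FoxO factor known to drive both atrophy ligases and autophagy genes, was well above background on 1 control and 4 palmitate arrays. Its log2 level was 7.37, 7.18, 7.30 and 7.30 in control and 7.31, 7.41, 7.33 and 7.31 with palmitate, and the groups overlapped. The spots were close to the local background, at 70.5 to 81.0 units in the control channel over a background of 32.0 to 42.0. The log2 ratios were -0.056, 0.23, 0.025 and 0.0098, with a mean of 0.053. Foxo3 entered the fit through its palmitate channel alone, and with 3 of 4 control spots not well above background neither a change nor a bound on it is read from that mean. Both probes of Foxo4, a FoxO factor also controlled by Akt, were below the background limit on every array in both channels, so no fold is given. Foxo6, the remaining mammalian FoxO factor and not one of the 10, had log2 ratios of 0.21, -0.22, -0.058 and -0.068 on its tested probe, with a mean of -0.034 ± 0.18 (SD, n = 4) and an adjusted p of 0.860 in limma. Replicate 1 was the single array above 0, but the ratios of replicates 3 and 4 were close to 0 and their signs carry little.

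**Figure D1:**
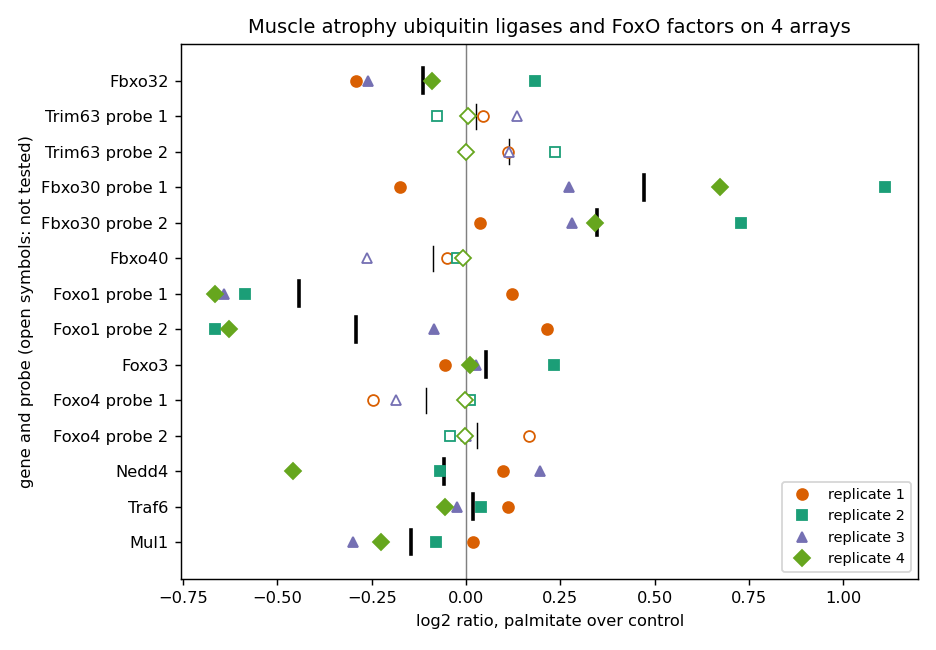
Log2 ratio of palmitate over control (horizontal axis, log2 units) of each of the 14 probes on each of the 4 arrays, with the mean as a vertical bar and open symbols for the 5 probes that were not tested. For both Foxo1 probes replicate 1 is the single array above 0, at 0.12 and 0.22, and the other arrays lie between -0.67 and -0.084.

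Fbxo32 is spotted 10 times on each array, which gives it a measurement error of its own. Its log2 level was 9.82, 9.70, 9.75 and 9.63 in control and 9.53, 9.88, 9.49 and 9.54 with palmitate. Palmitate culture 2 was above every control culture and the other palmitate cultures were below every control, so the groups overlapped in range and the arrays disagreed in direction. The log2 ratios were -0.29, 0.18, -0.26 and -0.090, with a mean of -0.11 ± 0.22 (SD, n = 4), an interval of -0.37 to 0.14 and an adjusted p of 0.548 in limma. Within an array the SD of the 10 spots was 0.021 to 0.058, below the SD of 0.22 between arrays. The spots ranged from -0.37 to -0.19 on replicate 1, from 0.12 to 0.26 on replicate 2, from -0.31 to -0.22 on replicate 3 and from -0.14 to -0.069 on replicate 4. No spot of replicate 2 was below 0 and no spot of the other arrays was above it, so the disagreement lay between arrays and not between spots. Spots of 1 array share its RNA and labelling and are not replicates of the treatment. The median spot SD of the 270 tested probes with 10 spots was 0.027 to 0.051 over the arrays, close to that of Fbxo32. Without replicate 2, the array of opposite sign, the mean of Fbxo32 was -0.21 with an adjusted p of 0.554 in limma, and without replicate 1 or 3 it was -0.055 (0.767) or -0.065 (0.834).

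**Figure D2:**
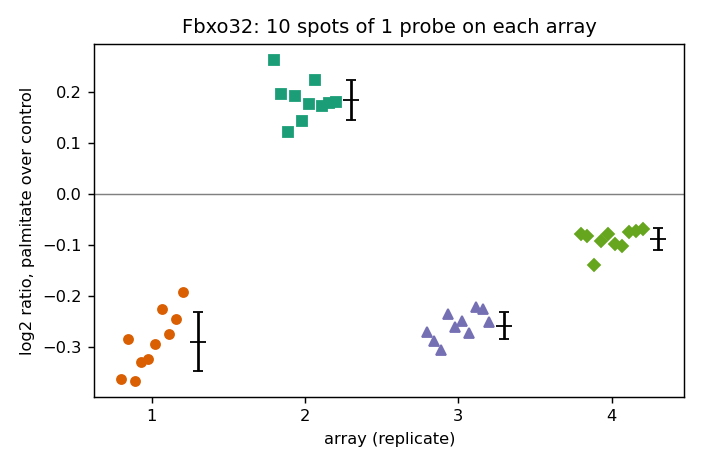
Log2 ratio of palmitate over control (vertical axis, log2 units) of the 10 Fbxo32 spots on each array (horizontal axis, replicate), with the mean and the SD of the spots in black. The spots of an array cluster tightly, with an SD of 0.021 to 0.058, and those of replicate 2 lie above 0, from 0.12 to 0.26.

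Trim63, the other classical atrophy ligase, was not well above background on any array in either channel with either of its 2 probes. The 4 probes of Trim63 and Foxo4 together had spot signals of 54.0 to 67.0 units for control RNA over local backgrounds of 31.0 to 41.0, and of 43.5 to 70.0 units for palmitate RNA over 33.0 to 49.5. No change of either gene could be measured at this signal, and the same probes cannot tell a low level from none. Fbxo40 was above background on 1 control and 2 palmitate arrays, with spots of 62.0 to 76.0 and 56.0 to 74.0 units, and was not tested. Trim63 and Fbxo40 were thus at or near background in these proliferating myoblasts. Of the markers of differentiated muscle, Myog, Myh3, Myh8, Acta1 and Tnnt3 were above it in all cultures. Ckm was above it on 1 control and 3 palmitate arrays and was not tested.

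Fbxo30 had the highest mean ratio among the members. On its brighter probe the log2 level was 10.09, 9.68, 10.10 and 9.87 in control and 9.92, 10.79, 10.37 and 10.54 with palmitate. Palmitate cultures 2, 3 and 4 were above every control culture and palmitate culture 1 was within the control range. The log2 ratios were -0.17, 1.11, 0.27 and 0.67, with a mean of 0.47 ± 0.55 (SD, n = 4), a 1.39-fold higher level with palmitate, an interval of -0.018 to 0.96 and an adjusted p of 0.241 in limma. Without replicate 1 the mean was 0.69 ± 0.42 (SD, n = 3), which is 1.61-fold, and the adjusted p was 0.0281 in limma. Without replicate 2, the array with the highest ratio, the mean was 0.26 and the adjusted p 0.690.

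The second Fbxo30 probe gave log2 levels of 9.88, 9.73, 9.82 and 9.97 in control and 9.92, 10.46, 10.10 and 10.31 with palmitate. As on the brighter probe, palmitate cultures 2, 3 and 4 were above all controls and culture 1 was among them. The log2 ratios were 0.037, 0.73, 0.28 and 0.34, all above 0, with a mean of 0.35 ± 0.29 (SD, n = 4), an interval of 0.051 to 0.64 and an adjusted p of 0.185 in limma. An exact sign-flip test over the 4 arrays gave p = 0.125 (two-sided), which is the lowest p within reach of 4 arrays. Without replicate 1 the mean was 0.45 ± 0.24 (SD, n = 3), or 1.37-fold, and the adjusted p was 0.0387 in limma, while without replicate 2 they were 0.22 and 0.577. The ratios of both probes differed by 0.0081 to 0.38 within an array, and averaged over them Fbxo30 had a log2 ratio of 0.41 with an adjusted p of 0.185 in limma. The ratios compare relative amounts in equal inputs of RNA, each taken from all cells of a culture. A changed share of cells in some state and a changed level per cell therefore cannot be told apart.

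**Figure D3:**
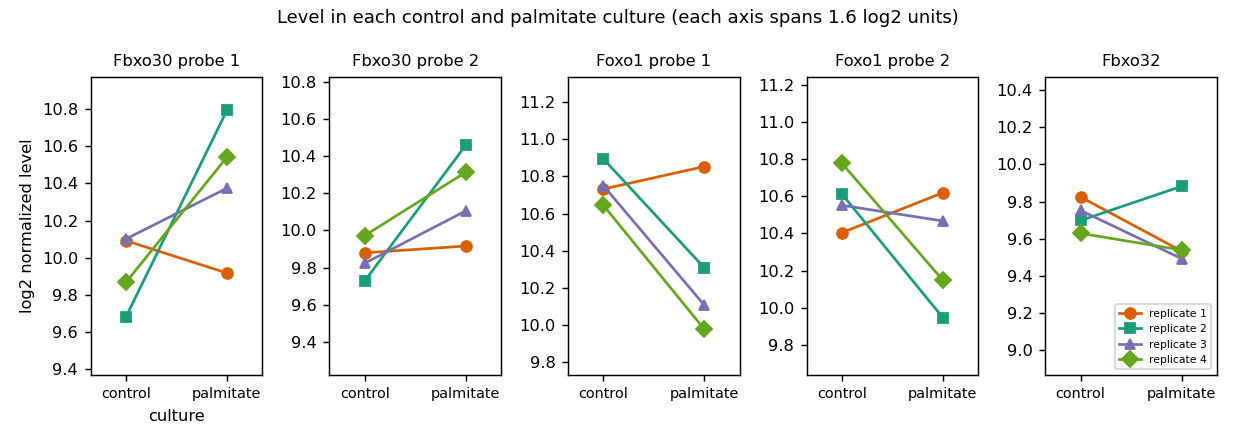
Normalized log2 level (vertical axis, each spanning 1.6 log2 units) in the control and palmitate culture of each array, joined by a line, for both probes of Fbxo30 and Foxo1 and for Fbxo32. In replicates 2, 3 and 4 the lines run up for both Fbxo30 probes and down for both Foxo1 probes, while in replicate 1 the brighter Fbxo30 probe runs down, from 10.09 to 9.92, and both Foxo1 probes run up.

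The ligases that act outside the SCF complex gave small ratios. Nedd4, a HECT ligase of membrane proteins, had log2 levels of 13.52, 13.63, 13.64 and 13.89 in control and 13.62, 13.56, 13.83 and 13.43 with palmitate. Its log2 ratios of 0.097, -0.070, 0.20 and -0.46 were of mixed sign, with a mean of -0.059 ± 0.29 (SD, n = 4), an interval of -0.35 to 0.24 and an adjusted p of 0.803 in limma. Replicate 4 alone carried the sign of that mean, which was 0.074 without it. Traf6, a RING ligase of cytokine and Toll-like receptor signalling, had log2 levels of 8.37, 8.41, 8.54 and 8.55 in control and 8.48, 8.45, 8.52 and 8.50 with palmitate. All palmitate cultures of Traf6 lay within the control range. Its ratios of 0.11, 0.041, -0.025 and -0.057 had a mean of 0.017 ± 0.074 (SD, n = 4), the narrowest spread among the tested members, with an interval of -0.17 to 0.20 and an adjusted p of 0.914 in limma.

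Mul1, a ligase of the outer mitochondrial membrane that targets mitofusin, had log2 levels of 11.68, 11.68, 11.67 and 11.64 in control and 11.70, 11.60, 11.36 and 11.42 with palmitate. The controls were almost level, and palmitate cultures 2, 3 and 4 lay below all of them while culture 1 lay above. The ratios were 0.019, -0.080, -0.30 and -0.23, with a mean of -0.15 ± 0.14 (SD, n = 4), an interval of -0.36 to 0.065 and an adjusted p of 0.366 in limma. Without replicate 1 the mean was -0.20 with an adjusted p of 0.173, and without replicate 3 it was -0.096 with 0.687.

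Across the members, 7 of 10 genes were tested, Foxo3 through its palmitate channel alone, and 0 passed an adjusted p of 0.05 in limma, against 0.0% of all genes. By the brightest probe and at an unadjusted p under 0.05 in limma, 1 member (Foxo1) was lower and 0 were higher. Of all 13666 genes, 13.3% were lower and 10.8% higher (24.1% in either direction). The second Foxo1 probe had an unadjusted p of 0.125, and the second Fbxo30 probe, higher with palmitate, 0.028 in limma. The methods' t-test here is the unpaired test named by the study, run on the levels and filter used here. It is not a rerun of the study's own processing. By it 0 members reached that level, against 8.17% of genes higher and 11.4% lower in the same test. None of the 7 had the same sign on all 4 arrays with its brightest probe, against 15.7% of genes higher and 16.8% lower on all. The second Fbxo30 probe was above 0 on all 4. Without replicate 1, 1 of 7 members was higher (Fbxo30, against 8.74% of genes) and 1 lower (Foxo1, against 9.83%), with 18.6% of genes called in either direction. Counted by probe, 2 of 9 were higher without it (both of Fbxo30, against 8.76% of probes) and 1 lower (against 9.2%). The median log2 ratio of the 7 members was -0.059, against 0.0016 over all genes, and the median size was 0.11 against 0.14. By the size of its mean, Fbxo30 exceeded 92.3% and Foxo1 90.7% of tested genes, while Mul1, Fbxo32, Nedd4 and Traf6 exceeded between 7.18% (Traf6) and 51.2% (Mul1). Replicate 1 had the opposite sign to the mean of the other arrays in 6 of 7 members (85.7%), all but Fbxo32, against 46.6% of all genes. These include Foxo3, whose control spots were mostly not well above background, and Traf6, whose mean without replicate 1 was -0.014. Signs of ratios this close to 0 carry little, so the share is not read as a trait of the members.

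The partner genes of the ligases were measured too. These lists were written with earlier results of these data known. Of 20 tested genes of the SCF core and the cofactors of the members, an unadjusted p under 0.05 was reached by 3 higher and 3 lower genes (30.0%, against 24.1% of all genes), 0 passed the adjusted p, and the median log2 ratio was -0.094. Cul1, the scaffold of SCF ligases, had ratios of 0.21, 0.71, 0.62 and 0.36, a mean of 0.48 ± 0.23 (SD, n = 4) and an adjusted p of 0.122. Cand1, which exchanges F-box subunits on Cul1, had a mean of 0.39 ± 0.16 on its brightest probe and 0.79 ± 0.56 on its other, both above 0 on all arrays. Sqstm1, the autophagy receptor p62 that binds Traf6, had ratios of 0.58, 0.85, 0.78 and 0.31 and a mean of 0.63 ± 0.24 (SD, n = 4), with an adjusted p of 0.118. Cyld, a deubiquitinase that opposes Traf6, had 0.53 on replicate 1 and a mean of -0.38 ± 0.70, and passed without replicate 1, at -0.68 with an adjusted p of 0.0299. Cul1, Cand1 and Sqstm1 also passed without replicate 1, with adjusted p of 0.0151, 0.0433 and 0.0180.

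Among the other ubiquitin ligases and conjugating enzymes of muscle, an unadjusted p under 0.05 was reached by 4 higher and 2 lower of 27 tested genes (22.2%), with 0 past the adjusted p and a median log2 ratio of -0.031. Ube4b, a U-box ubiquitin chain elongation factor, had a mean of 0.60 ± 0.27 (SD, n = 4) and was above 0 on all arrays, but its second probe gave -0.15 ± 0.25. Zfand5, a zinc-finger protein that activates the proteasome in atrophy, had 0.50 ± 0.19 and 0.091 ± 0.095 on its probes. Ubr2, a ligase of the N-degron pathway, had -0.32 ± 0.13 and -0.36 ± 0.17 on its probes and was below 0 on all arrays with both. On the brightest probes the adjusted p was 0.118 to 0.131 in limma. Without replicate 1 Ube4b (0.00600) and Zfand5 (0.0226) passed on that probe while Ubr2 (0.0606) did not. The second probes did not pass without it, with adjusted p of 0.106 (Ube4b), 0.692 (Zfand5) and 0.0550 (Ubr2) in limma.

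Of the kinases and regulators that act on FoxO factors, 5 higher and 3 lower genes of 38 tested (21.1%) had an unadjusted p under 0.05, 0 passed the adjusted p, and the median was 0.067. The 14-3-3 genes, whose proteins bind phosphorylated FoxO, had means of both signs. Ywhag had log2 ratios of -0.13, 1.03, 0.77 and 0.82, Ywhab of -0.094, 0.63, 0.72 and 0.51, and Ywhaz of -0.56, 0.80, 0.49 and 1.15. On the brightest probe of all 3, replicate 1 was below 0 and the other arrays above it, the reverse of Foxo1. Their means were 0.62 ± 0.52, 0.44 ± 0.37 and 0.47 ± 0.74 (SD, n = 4), with adjusted p of 0.153, 0.169 and 0.342, and without replicate 1 they were 0.87, 0.62 and 0.81, with adjusted p of 0.00419, 0.00857 and 0.0117 in limma. The other probes of Ywhaz gave 0.67 ± 0.88 and -0.093 ± 0.16, with adjusted p of 0.0117 and 0.814 without replicate 1 in limma. The latter probe was also below 0 on replicate 3, at -0.20. Ywhae had -0.26 ± 0.15 and was below 0 on all arrays, with an adjusted p of 0.183, and Ywhaq had 0.068 ± 0.17. Stk3, the kinase MST2 that phosphorylates FoxO, had ratios of 0.44, 0.89, 0.32 and 0.56 and a mean of 0.55 ± 0.25, with an adjusted p of 0.118, and 0.0224 without replicate 1.

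Of 32 tested genes known as targets of FoxO factors, 4 with a higher and 5 with a lower level had an unadjusted p under 0.05 (28.1%), 0 passed the adjusted p and the median was 0.011. Ctsl, a lysosomal protease, had ratios of -0.17, 0.72, 0.60 and 0.88 and a mean of 0.51 ± 0.47 (SD, n = 4). Cdkn1b, the cell cycle inhibitor p27, had -0.16, 0.58, 0.69 and 0.78 and a mean of 0.47 ± 0.43. Cdkn1a, the inhibitor p21, ran the other way with 0.20, -0.83, -0.39 and -0.54 on its brightest probe, a mean of -0.39 ± 0.43, and 0.091 ± 0.17 on its second probe. Eif4ebp1, the translation repressor 4E-BP1, was below 0 on all arrays with a mean of -0.46 ± 0.32. Adjusted p were 0.181, 0.182, 0.237 and 0.141, and without replicate 1 they were 0.00630, 0.00671, 0.0163 and 0.0245 in limma. The second Cdkn1a probe did not pass without replicate 1, with an adjusted p of 0.550 in limma. 

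Of 29 tested genes of signals upstream of atrophy, 6 with a higher and 3 with a lower level had an unadjusted p under 0.05 (31.0%), 0 passed the adjusted p and the median was 0.015. Stat3, which carries interleukin-6 signals, had ratios of -0.079, -1.86, -0.57 and -1.63 on its brightest probe and a mean of -1.03 ± 0.85 (SD, n = 4), against -0.097 ± 0.18 on its second probe. Tnfrsf12a, the TWEAK receptor Fn14, had -0.98 on replicate 1 and a mean of -0.41 ± 0.59, which was -0.22 without that replicate. Runx1 and Rela were below 0 on all arrays, with means of -0.39 ± 0.23 and -0.37 ± 0.20, but the second Runx1 probe gave 0.027 ± 0.10. Of these, Stat3 passed in limma without replicate 1 on its brightest probe, with an adjusted p of 0.0127, while its second probe had 0.483.

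Of 16 tested genes for proteins that Fbxo32 or Trim63 are known to bind or degrade, 4 with a higher and 0 with a lower level had an unadjusted p under 0.05 (25.0%), 0 passed the adjusted p and the median was 0.091. Vim, the intermediate filament vimentin, had ratios of 0.34, 1.28, 1.27 and 1.10 and a mean of 1.00 ± 0.45 (SD, n = 4). Ppp3ca, the catalytic subunit of calcineurin, had 0.38, 0.54, 0.44 and 0.48, a mean of 0.46 ± 0.067, so replicate 1 lay near the other arrays. Myh3, embryonic myosin heavy chain, had 0.32 ± 0.18 and Myod1, a myogenic factor degraded through Fbxo32, 0.24 ± 0.20, with no ratio below 0. Adjusted p were 0.118, 0.118, 0.150 and 0.227 in limma, and without replicate 1 Vim (0.00147) and Ppp3ca (0.0145) passed.

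Over the 6 lists together, limma gave 26 higher and 16 lower of 160 genes an unadjusted p under 0.05 (26.3%, against 24.1% of all genes). None passed the adjusted p, as in all genes. By the methods' t-test 22 were higher (13.8%, against 8.17% of all genes) and 14 lower (8.75%, against 11.4%). In that test 0 list genes passed the adjusted p, against 8 of 13666 genes. Genes with the same sign on all 4 arrays were 4 higher and 6 lower for the SCF core and cofactors, 6 and 3 for the other ligases and conjugating enzymes, and 5 and 3 for the FoxO regulators. They were 2 higher and 5 lower for the FoxO targets, 8 and 3 for the upstream signals and 8 and 0 for the substrates, against 15.7% higher and 16.8% lower of all genes. Without replicate 1, the share of genes past the adjusted p was 30.0% for the SCF core and cofactors (4 higher, 2 lower), 18.5% for the other ligases (4 and 1) and 23.7% for the FoxO regulators (8 and 1). It was 31.3% for the FoxO targets (6 and 4), 10.3% for the upstream signals (2 and 1) and 12.5% for the substrates (2 and 0), against 18.6% of all genes.

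**Figure D4:**
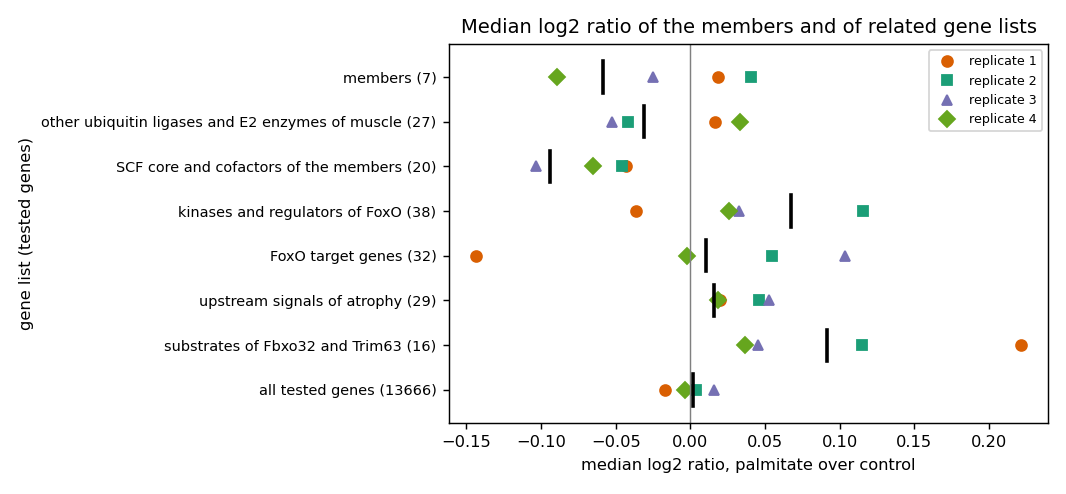
Median log2 ratio of palmitate over control (horizontal axis, log2 units) on each array and of the means (black bar) for the 7 tested members, 6 related gene lists and all 13666 tested genes. The medians of the means lie between -0.094 and 0.091, and within the list of FoxO targets the arrays run from -0.14 (replicate 1) to 0.10 (replicate 3).

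The genes whose 4 ratios lay nearest to those of a member, by Euclidean distance over the 4 arrays, were found among all tested genes. For Foxo1 these were Ankhd1, Pigu and Pin4, at distances of 0.055, 0.072 and 0.082, each above 0 on replicate 1 and below it on the others, and 482 genes lay within 0.5. For Fbxo32 they were Krr1 (0.058), Cth (0.062) and Fbxl14 (0.089), with 3129 genes within 0.5. For Foxo3, whose control signals were mostly not well above background, they were Ipo7, Atpaf1 and Dspp, at 0.031 to 0.037, among 6258 genes within 0.5. For Nedd4 they were Sri (0.034), Stx6 (0.12) and Saraf (0.13), among 1612 genes. The smaller number around Foxo1 goes with its larger ratios, and with 4 arrays such likeness is a description.

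The 16 ways of processing include filters and tests that leave a ratio as it is. Filters shifted only the median of all tested probes, which was 0.0089 with all arrays and -0.00071 to 0.012 under other filters. In distance from that median, the deposited table repeats the processed signals, and no dye normalization repeats median centring. Apart from these, 7 alternatives could move the ratio's distance from it: no background correction, median centring, the processed signals and each replicate left out. Under these 7 the difference from that median was -0.64 to -0.32 for Foxo1 and 0.25 to 0.68 for Fbxo30, on the log2 scale. Against 0, Foxo1 was -0.15 on its brighter probe and -0.0022 on the other with median centring, where the median of all probes was 0.18, and turned above 0 (0.67) when the dyes were left unnormalized, where that median was 0.99. Leaving out replicate 2, 3 or 4 in place of replicate 1 gave adjusted p in limma of 0.409 to 0.564 for Foxo1 and 0.407 to 0.690 for Fbxo30.

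**Figure D5:**
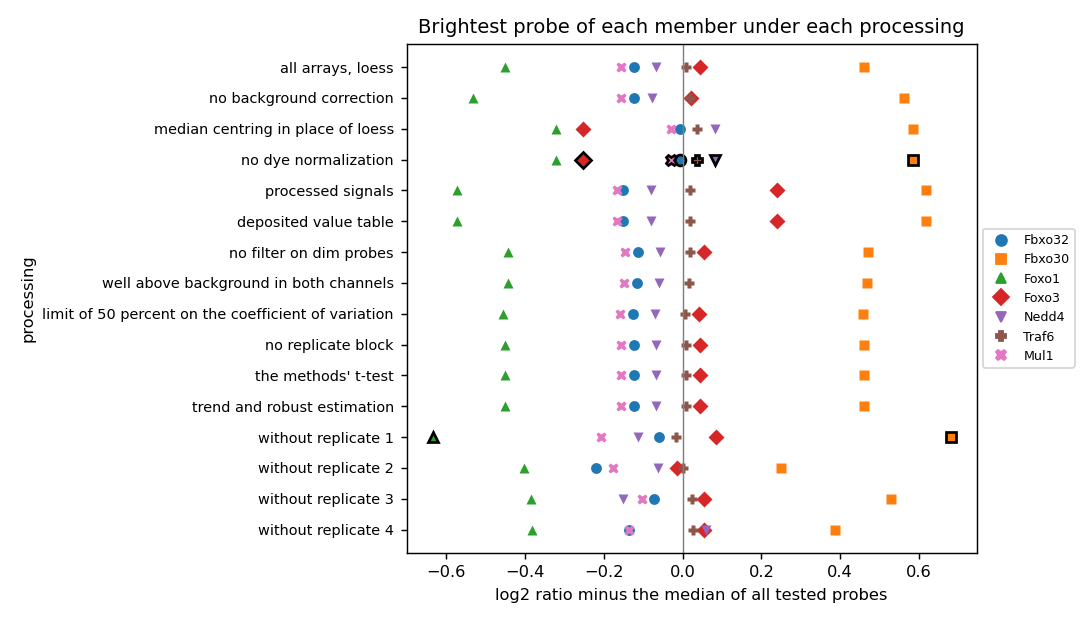
Log2 ratio of palmitate over control minus the median of all tested probes (horizontal axis, log2 units) for the brightest probe of each tested member, under each processing (vertical axis), with a black edge where the adjusted p against 0 was under 0.05. Foxo1 lies between -0.64 and -0.32 and Fbxo30 between 0.25 and 0.68, and settings that change only a filter or a test leave the ratio itself in place.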

How the data were processed

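RNA of 4 control and 4 palmitate cultures was hybridised to 4 two-colour arrays on 1 slide (1000 ng RNA), read with Agilent Feature Extraction 10.7.3.1 per the submitters' processing notes. The authors deposited uncorrected intensity values (median signal of each spot and of its local background) and intensity values from which Agilent's software had removed background and dye bias. They also deposited a table of log2 palmitate-to-control ratios, equal to the ratio of those corrected intensities within 3.02e-06.

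Uncorrected medians went through normexp (offset 50) and within-array loess with limma (version 3.58.1, under R 4.3.3). Control spots had weight 0 in loess, spots flagged as outliers were left out, and spots of a probe were averaged. Levels are channel log2 values after Aquantile normalization. In limma, mean log2 ratios were compared with 0 and p-values adjusted by Benjamini-Hochberg over 24055 probes, and the pairing by array is part of that fit. A call needs an adjusted p of 0.05. A gene is represented by its brightest tested probe. RefSeq accessions named 26055 of 39429 probes. The fit was tested on simulated data. Each probe's spread in them came from the arrays other than replicate 1, so they held no discordant array.

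Named genes are the members with every probe, from each list the 4 tested genes with the largest mean ratio by size, the 3 genes nearest to Fbxo32, Foxo1, Foxo3 and Nedd4, Foxo6 and the markers. The result of 1 gene named by this rule is not reported here. Ywhae, Ywhaq and Rn28s1 were named after their values were seen. The members and lists were chosen with earlier results of these data known. The alternatives changed background correction, dye normalization, source of values, filters, pairing, test, variance model, probe choice and replicates. Signal over background and the number of arrays limit the precision.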

Additional observations from a re-analysis of the deposited data

Results flagged for a closer look

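Over the member probes, 27 groups of 4 values were examined for a single value far from the others, and 2 were found, where the gap to the nearest value, as a share of the whole range, exceeded the critical value of Dixon's test. Chance alone picks about 1 in 20 such groups. The log2 level of Fbxo32 in palmitate culture 2 was 9.88, above the other palmitate cultures at 9.49 to 9.54. The log2 ratio of the brighter Foxo1 probe on replicate 1 was 0.12, above the other arrays at -0.67 to -0.59.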

How the results depend on the processing

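No member passed the test in the 4 arrays. Leaving out 1 replicate gave 0 to 1 member genes higher and 0 to 1 lower, 0 to 26 list genes higher and 0 to 9 lower, and 0 to 2107 probes of all higher and 0 to 2212 lower (0 to 550 and 0 to 747 at a fold of 1.6), with every call from leaving out replicate 1. Traf6 ranged from -0.014 (without replicate 1) to 0.042, Foxo3 from -0.0068 (without replicate 2) to 0.089 and Nedd4 from -0.14 to 0.074 (without replicate 4). Fbxo32 ranged from -0.21 to -0.055 and Fbxo30 from 0.26 to 0.69. With median centring in place of loess, where all probes had a median of 0.18, Fbxo32 was 0.17, Foxo3 -0.076, Nedd4 0.26, Mul1 0.15 and Foxo1 -0.15 and -0.0022 on its probes. With no dye normalization, where that median was 0.99, Fbxo32 was 0.98, Foxo1 0.67 and 0.81 on its probes, Nedd4 1.07 and Mul1 0.96, and 6 member genes, 148 list genes and 20252 probes were higher and 26 probes lower, the same at a fold of 1.6. This setting leaves the offset between the channels in every ratio, and dye and palmitate cannot be told apart in that offset. Processed signals and the deposited table each gave 13 probes higher (13 at the fold), and a limit of 50% on the coefficient of variation gave 2 (2 at the fold). With no replicate block, where the pairing by array is dropped, 29 probes were higher and 27 lower (13 and 8 at the fold), and the methods' t-test gave 4 and 6 (1 and 2). Neither called a member. The cause of these differences was not tested. Foxo3 has no value where both channels must be above background.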
